A study of Mus musculus with 4 samples.

Results

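Scn7a and Nrxn3, 2 genes usually discussed in nerve and glia, were set beside the glial and nerve genes Sox10, Pmp22, Mbp, Ngfr and Cadm2 in terminal end buds, the swollen tips at which mammary ducts grow during puberty. The set of 7 was chosen by the large knockout minus control differences of Scn7a and Nrxn3 on these same arrays and by the glial or nerve role of the others, so every difference of its members is given as a description, with no test. Probe sets annotated to exactly 1 gene were found for 6 of the 7, with 1 probe set each, among 19938 genes with such a probe set and 11963 genes that passed the filter on dim signals. Cadm2 had none in the annotation used here and was not analysed. All 6 measured genes passed the filter, a mean log2 value of 7.97 over the 4 arrays, and each lay above that level on every array.

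RNA from end buds of female mice of strain C57/BL6 was measured on 4 single-colour Affymetrix arrays, 2 per genotype. Control mice carried 1 floxed and 1 wild-type Ovol2 allele (Ovol2flox/+); the protocol allows controls with K14-Cre, while the sample characteristics list none. Knockout mice carried 1 floxed and 1 null allele with K14-Cre (Ovol2flox/-;K14-Cre), so both groups share a floxed allele. The keratin 14 promoter drives Cre in basal epithelium and skin, whereas the null allele is carried throughout the body. Each control array held a pool of 2 mice and each knockout array a pool of 3, so pool size and genotype cannot be told apart. The age is 4.5 weeks in the sample labels and 24 to 25 days in the series text.

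Schwann cells are the glia of peripheral nerves: they wrap axons, and some of them lay down myelin, under the control of the transcription factor Sox10 and of neuregulin signals from the axon through the receptors Erbb2 and Erbb3. Nerve fibres run through the mammary stroma, but the cell bodies of those neurons, which hold most of their mRNA, lie in ganglia outside the gland. Several genes named for glia are also used elsewhere: Sox10 in mammary epithelial progenitors and melanocytes, Ngfr in myoepithelial cells, and Pmp22 in fibroblasts and epithelium. In bulk tissue, fewer cells of a type and less RNA per cell cannot be told apart.

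Because Scn7a and Nrxn3 had the most similar changes of the set, the 250 bases before their RefSeq start sites (assembly GRCm38.p6) are shown, with Pmp22, the next largest rise. Promoter entries were used for 5 of the 7 genes, 1 for Scn7a, 3 for Nrxn3, 4 for Pmp22, 1 for Ngfr and 1 for Cadm2. None was used for Sox10 or Mbp, and any entry on the chromosome of Mbp was left out for the members. Capitals mark letters found in a search on both strands for CACCTG (the E-box bound by Zeb and Snail factors), CCGTTA (of the kind bound by Ovol factors) and ACAAAG (of the kind bound by Sox factors).
Scn7a, chr2:66784911-66785160 (- strand): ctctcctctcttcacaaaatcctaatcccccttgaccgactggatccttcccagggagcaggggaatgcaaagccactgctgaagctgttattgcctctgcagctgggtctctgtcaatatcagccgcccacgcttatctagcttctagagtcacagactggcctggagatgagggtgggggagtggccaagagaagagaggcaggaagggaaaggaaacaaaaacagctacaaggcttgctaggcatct
Nrxn3, start 1, chr12:88794254-88794503 (+ strand): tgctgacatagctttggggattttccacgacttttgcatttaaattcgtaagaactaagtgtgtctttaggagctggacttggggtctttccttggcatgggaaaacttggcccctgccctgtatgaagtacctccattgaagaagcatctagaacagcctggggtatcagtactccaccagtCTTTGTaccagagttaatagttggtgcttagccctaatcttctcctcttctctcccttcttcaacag
Nrxn3, start 2, chr12:88953140-88953389 (+ strand): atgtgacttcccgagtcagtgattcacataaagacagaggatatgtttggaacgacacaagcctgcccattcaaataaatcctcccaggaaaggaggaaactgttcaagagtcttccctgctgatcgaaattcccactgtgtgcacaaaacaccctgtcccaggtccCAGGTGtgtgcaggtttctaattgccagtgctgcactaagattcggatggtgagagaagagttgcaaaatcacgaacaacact
Nrxn3, start 3, chr12:89812233-89812482 (+ strand): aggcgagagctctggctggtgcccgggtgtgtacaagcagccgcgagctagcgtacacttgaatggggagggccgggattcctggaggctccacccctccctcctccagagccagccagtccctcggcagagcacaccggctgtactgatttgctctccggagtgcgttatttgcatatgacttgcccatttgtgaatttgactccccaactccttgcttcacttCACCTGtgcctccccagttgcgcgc
Pmp22, start 4, chr11:63132553-63132802 (+ strand): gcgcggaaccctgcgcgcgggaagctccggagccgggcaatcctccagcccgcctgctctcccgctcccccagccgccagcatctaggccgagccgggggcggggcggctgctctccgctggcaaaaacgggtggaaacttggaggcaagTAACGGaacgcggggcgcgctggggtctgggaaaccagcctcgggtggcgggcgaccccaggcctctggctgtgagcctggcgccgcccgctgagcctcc
The Scn7a window held none of the 3 motifs. The Nrxn3 windows held ACAAAG on the opposite strand 67 bases before start 1, CACCTG on the opposite strand 83 bases before start 2, and CACCTG on the gene's strand 25 bases before start 3, counted from the left end of each match. The Pmp22 window held CCGTTA on the opposite strand 100 bases before start 4, while its other 3 windows and those of Ngfr and Cadm2 held none of the motifs. Over all 32851 windows of the same length in the table, 17.2% held CACCTG, 2.18% CCGTTA and 16.5% ACAAAG. Which start the array's probes follow is not known here.

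Scn7a and Nrxn3 rose together while the glial genes went separate ways. In the knockout Scn7a was 4.30-fold and Nrxn3 4.74-fold higher, Pmp22 was 1.68-fold higher, Mbp higher by 0.14 on the log2 scale, Sox10 1.17-fold lower and Ngfr 1.59-fold lower. All values below are log2(signal + 16) after quantile normalization unless another scale is named. Because 16 was added to each signal, a fold change understates the change of dim genes.

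**Figure D1:**
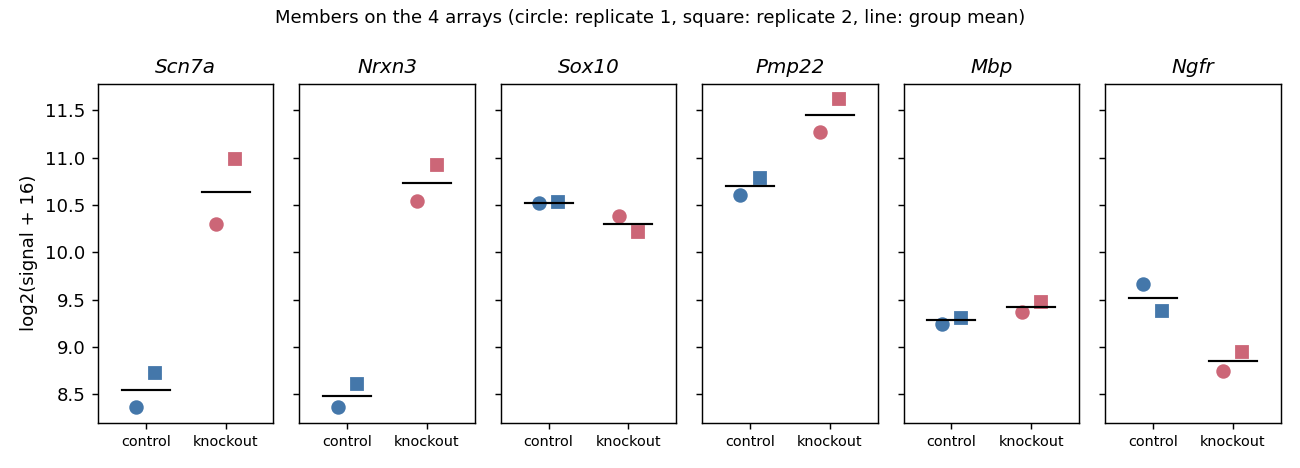
Log2(signal + 16) of the 6 measured genes in control (blue) and knockout (red) arrays, with replicate 1 as circles, replicate 2 as squares and group means as lines, n = 2 arrays per group. Scn7a and Nrxn3 rise by 2.10 and 2.25, Pmp22 by 0.75 and Mbp by 0.14, whereas Sox10 and Ngfr are lower by 0.23 and 0.67 in the knockout.

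Scn7a encodes the sodium channel protein Nax, which responds to sodium concentration rather than acting as a classical voltage-gated channel and is known from glia, including Schwann cells. Control arrays read 8.36 and 8.72 and knockout arrays 10.30 and 10.99, from deposited linear signals of 311, 399, 1280 and 1990. The knockout arrays both lay above the controls, with replicate 2 higher than replicate 1 in both groups. The log2 difference was 2.10 with a pooled SD within groups of 0.39 (n = 2 per group), the fourth largest rise among the 11963 genes (rank 4).

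Nrxn3 encodes a neurexin, a presynaptic adhesion protein that binds neuroligins and other partners across the synapse. The values rose from 8.36 and 8.61 in control arrays to 10.54 and 10.92 in knockout arrays, from deposited signals of 312, 367, 1520 and 1890. The groups did not overlap, and the difference of 2.25 (pooled SD 0.23) was the second largest rise (rank 2). The 2 genes were therefore close in size of change and in the order of the 4 arrays.

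Sox10, the transcription factor that specifies and maintains Schwann cells, moved slightly the other way. Its control values of 10.52 and 10.53 compared with 10.38 and 10.21 in the knockouts, a difference of -0.23 (pooled SD 0.087). Both knockout arrays were below both controls, with a gap about as wide as the step between the knockout pools.

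Ngfr encodes the p75 neurotrophin receptor, found on immature and non-myelinating Schwann cells and on myoepithelial cells. Controls stood at 9.66 and 9.38 and knockouts at 8.75 and 8.95, a difference of -0.67 (pooled SD 0.17) that placed it at rank 60 among falls. Both knockout arrays were below both controls. Trp63, a basal epithelial transcription factor gene, fell in the same arrays by 0.36 ± 0.06 (SE; limma, adjusted p = 0.00864), a call lost with median centring, with a prior without trend and without control replicate 1 (-0.32). It was the 1 fall among 10 basal epithelial genes, of which 5 rose, with a list median of 0.32.

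Pmp22 encodes a tetraspan membrane protein of compact peripheral myelin and was first described as a growth arrest gene of fibroblasts. Pmp22 stood at 10.61 and 10.79 in control and at 11.27 and 11.62 in knockout arrays, a difference of 0.75 (pooled SD 0.19). Mbp, the myelin basic protein gene whose locus also makes transcripts in immune cells, read 9.24 and 9.31 against 9.37 and 9.47, a difference of 0.14 (pooled SD 0.06). Both were higher in the 2 knockout arrays, Pmp22 at rank 165 among rises and Mbp at rank 2144. Over all tested genes, both knockout arrays lay above both controls for 26.4% and below both for 29.9%, and 10.7% of genes were called by limma at an adjusted p of 0.05. Since the genes were listed with this contrast known, nothing is read from their number on either side.

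The mean difference of Scn7a and Nrxn3 exceeded the median of the other 4 genes by 2.22. Scn7a and Nrxn3 were chosen for large differences on these arrays, so the choice itself makes a wide gap. Leaving out single arrays gave between 1.93 (without knockout replicate 2) and 2.51 (without knockout replicate 1). Scn7a itself ranged from 1.76 to 2.45 and Nrxn3 from 2.06 to 2.43 without single arrays, and no member changed sign under any alternative that was run. The groups did not overlap for any measured member, so leaving out a single array could not change a sign. These ranges are therefore no measure of stability.

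Among 33 further genes of Schwann cells and myelin on the array, most were dim or did not differ beyond the threshold. Of these 33, 14 could be tested: 2 rose, 1 fell and 11 did not pass, beside 6.29% of all tested genes called higher and 4.45% called lower. The median difference was 0.0051 over the 14 and -0.04 over the 33, beside -0.022 over all tested genes. The summed linear signal of the 33 was 17200 and 17600 in control and 17700 and 18100 in knockout arrays, so the sums of the groups lay close together. Bright genes dominate such a sum, above all Erbb3 (11.79 and 11.99 in control arrays, 12.13 and 12.05 in knockout arrays). Another 19 of the 33 lay under the filter. The sum and the medians therefore do not measure the amount of Schwann cell RNA. Mag, an adhesion protein gene of myelinating glia, lay under the filter (difference -0.13).

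**Figure D2:**
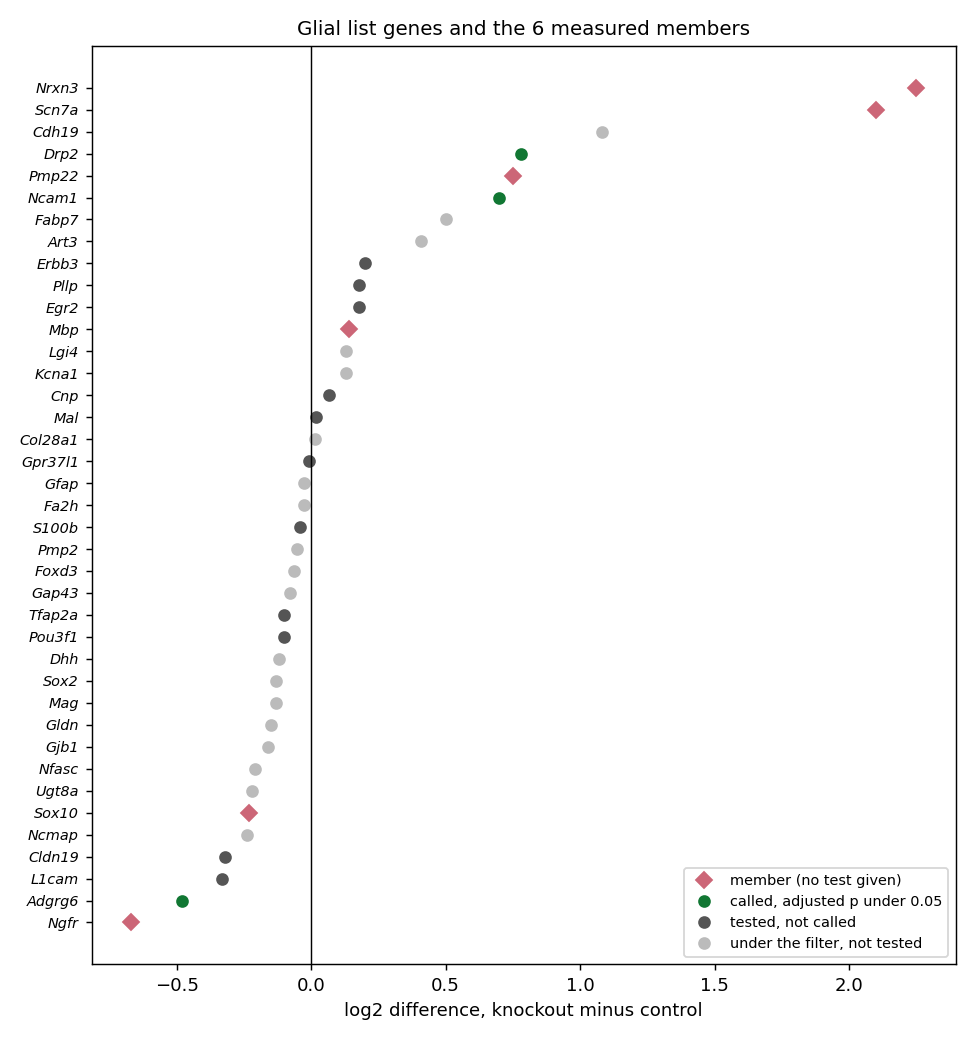
Log2 difference, knockout minus control, for 33 genes of the Schwann lineage and myelin lists and the 6 measured members (red diamonds, no test given), with 2 arrays per group. Scn7a and Nrxn3 stand to the right of every glial gene, of which Cdh19 is nearest at 1.08, and green points mark the 3 glial genes past the threshold.

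Schwann lineage genes changed in both directions. Ncam1, the neural cell adhesion molecule gene of non-myelinating Schwann cells and other tissues, rose from 8.84 and 8.78 to 9.43 and 9.60 (difference 0.70 ± 0.10 SE, limma, adjusted p = 0.00263). Adgrg6, the adhesion receptor gene needed for Schwann cells to begin myelination, fell from 10.50 and 10.55 to 10.18 and 9.91 (difference -0.48 ± 0.09, limma, adjusted p = 0.00952). The Adgrg6 call was lost with a variance prior without trend. The groups did not overlap for either gene.

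Other lineage genes gave no call. Erbb3, the neuregulin receptor gene also active in luminal epithelium, differed by 0.20 (limma, adjusted p = 0.0923), and crossed the threshold on the deposited values, with the replicate block, without control replicate 2 (0.30) and without knockout replicate 2 (0.24). The calcium-binding protein gene S100b differed by -0.04 and the axonal adhesion gene L1cam by -0.33, neither past the threshold. Gfap, the intermediate filament gene of non-myelinating glia, was under the filter with a difference of -0.028.

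Cdh19, a cadherin gene of the Schwann cell lineage, was the exception among dim genes. The control arrays gave 6.49 and 6.67 and the knockout arrays 7.72 and 7.61, under the filter level on every array. Its difference was 1.08 ± 0.14 (SE), and in a fit of all 19938 genes with no filter it passed (limma, adjusted p = 0.00185). Fabp7 and Art3, also under the filter, had differences of 0.50 and 0.41 and did not pass in that fit.

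Of 5 tested myelin genes besides Pmp22 and Mbp, 1 rose and 4 did not pass. Drp2, a dystrophin-related protein gene of the Schwann cell membrane, rose from 7.51 and 7.81 to 8.43 and 8.46 (difference 0.78 ± 0.16 SE, limma, adjusted p = 0.0146). Both controls lay under the filter level, so Drp2 was tested through its knockout signal, and without control replicate 1 it was 0.64 and did not pass. Cnp, an enzyme gene of myelinating cells, differed by 0.07, and Pllp by 0.18, neither past the threshold.

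Genes of neurons and axons were mostly dim. Of 18 on the array, 15 lay under the filter, and of the 3 tested (Tubb3, Npy and Tac1) 0 passed by limma, with 1 at an unadjusted p under 0.05. Tac1, a neuropeptide gene, differed by 0.35, and it passed without knockout replicate 1 (0.50). The median over the 18 was -0.13, and the summed signal was 2890 and 2850 in control and 2630 and 2820 in knockout arrays. The neurofilament genes Nefl, Nefm and Nefh, which mark axons, differed by -0.0055, -0.14 and -0.012 and were all under the filter.

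No other sodium channel gene with a probe set had a difference near that of Scn7a. Among 10 relatives with a probe set, the differences ran from -0.26 to 0.05. Only Scn2a (-0.19) and Scn8a (0.05), both brain-type channel genes, were bright enough to test, and 0 passed by limma, with 0 at an unadjusted p under 0.05. Scn2a had 14 probe sets, with differences from -0.22 to 0.20.

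The genes beside Scn7a on the chromosome were read next, a view chosen after the values were seen. In the gene order of the RefSeq table (GRCm38.p6), Scn9a, Scn1a, Ttc21b, Galnt3, Csrnp3, Scn2a, Scn3a and Slc38a11 follow on one side of Scn7a, and Gm1322 and Xirp2 on the other. From Scn9a to Scn3a the 7 genes had differences between -0.26 and 0.14, and Gm1322 and Xirp2 had -0.013 and -0.047. Slc38a11, a putative amino acid transporter gene at the far end of the sodium channel genes, went from 7.74 and 8.41 in control to 9.52 and 10.10 in knockout arrays, a difference of 1.73. Thus 2 genes of the interval were high in the knockout, and the 7 genes between them were not. The neighbours of Nrxn3 with a probe set (Gm5662, Adck1, Dio2, Cep128 and Tshr) differed by between -0.15 and 0.17.

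**Figure D3:**
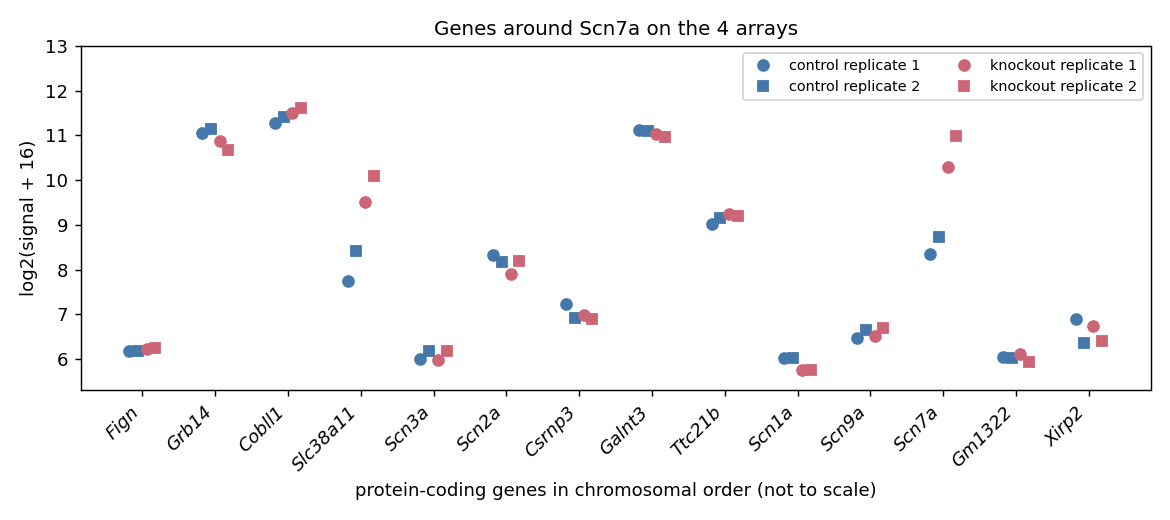
Log2(signal + 16) on the 4 arrays for protein-coding genes around Scn7a in chromosomal order, not to scale, with control arrays in blue and knockout arrays in red. Scn7a and Slc38a11 are separated by genotype by 2.10 and 1.73, with 7 genes between them that differ by at most 0.26 in size.

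The differences of relatives and partners of Nrxn3 were smaller in size. Nrxn2, a second neurexin gene, differed by -0.12 and did not pass. Among the neuroligin genes, whose products bind neurexins, Nlgn2 rose from 8.65 and 8.80 to 9.14 and 9.24 (difference 0.46 ± 0.10 SE, limma, adjusted p = 0.0221), Nlgn3 differed by -0.05 and Nlgn1, under the filter, by -0.45. The Nlgn2 call was lost with median centring, with a prior without trend and without control replicate 1 (0.39). Of 16 neurexin relatives and partners on the array 8 were tested, and Nlgn2 was the 1 that passed. The dystroglycan gene Dag1, whose product also binds neurexins, differed by -0.10.

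Of the Cadm family, adhesion molecules by which Schwann cells contact axons, 3 genes besides Cadm2 had a probe set. Cadm1 fell by 0.35 ± 0.08 (SE; limma, adjusted p = 0.0195), from 9.99 and 9.91 to 9.63 and 9.57, and the call was lost with median centring, with a prior without trend and without control replicate 1 (-0.30). Cadm4, the form on Schwann cells, differed by -0.02, and the axonal form Cadm3, under the filter, by 0.04.

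Ligands and receptors of nerve growth also went both ways. Of 11 tested genes besides Ngfr, 3 rose, 1 fell and 7 did not pass. Nrg1, the neuregulin gene that signals to Erbb3, fell from 10.56 and 10.57 to 9.81 and 10.01 (difference -0.66 ± 0.08 SE, limma, adjusted p = 0.00135), and it passed under every alternative that was run. Ntrk3, the receptor gene for neurotrophin 3, rose from 7.76 and 8.37 to 8.88 and 9.32 (difference 1.03 ± 0.21, limma, adjusted p = 0.0128). That call was lost with a prior without trend and with a robust prior.

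Gfra2, a co-receptor gene for neurturin, rose by 0.76 ± 0.20 (SE; limma, adjusted p = 0.0376), but its knockout arrays stood at 8.74 and 9.47. It did not pass with a robust prior or without trend, nor when control replicate 1 (0.79), control 2 (0.74) or knockout 2 (0.40) was left out. Sort1, the sortilin gene, named after its value was seen, rose by 0.22 ± 0.06 (limma, adjusted p = 0.0443), a call lost under 7 alternatives, among them the omission of control replicate 1 (0.16) or knockout replicate 2 (0.19).

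Most markers of fibroblasts rose in the knockout arrays, where Scn7a and Nrxn3 were high. Of 18 tested fibroblast genes 15 rose and 0 fell, with 16 higher and 0 lower at an unadjusted p under 0.05 (limma). Their median was 1.07, and the summed signal of the 19 on the array was 22200 and 22900 in control and 40000 and 48600 in knockout arrays. The proteoglycan gene Lum rose by 1.94 ± 0.09 (SE; limma, adjusted p = 1.35e-05), the laminin gene Lama2 by 1.94 ± 0.18, the receptor gene Pdgfra by 1.62 ± 0.11 and the protease gene Mmp2 by 1.61 ± 0.10. Lama2 was under the filter level in both controls. Fbln1 went the other way, lower on both knockout arrays than on both controls, with a difference of -0.18 that did not pass. Without trend 10 of the fibroblast genes were called higher. The part of fibroblast RNA in the Scn7a, Nrxn3 and Pmp22 values was not tested.

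Of 11 tested endothelial and pericyte genes 7 rose and 0 fell, with a median of 0.63 and sums from 5520 to 6630 in controls and 8530 to 10700 in knockouts. Of 5 tested adipocyte genes 4 rose and 0 fell; the median was 0.58 over these and 0.11 over all 9 on the array, with sums of 3820 and 4030 against 5210 and 6120. Part of the vessel markers were thus also higher, while the adipocyte list was split. Lpl, Cd36, Fabp4 and Pparg rose, and Plin1 differed by -0.084 and did not pass. Adipoq (0.11), Plin4 (-0.055), Lep (0.016) and Cidec (-0.015) lay under the filter. Whether the amount of fat differed was not tested. The endothelial gene Kdr was under the filter level in both controls and was tested through its knockout signal, and without control replicate 1 (0.76) it did not pass. Without trend Emcn, Kdr and Rgs5 of the endothelial list and Cd36, Fabp4 and Pparg of the adipocyte list lost their calls. Pparg also lost its call with median centring, without control replicate 1 (0.32) and without knockout replicate 2 (0.38). At an unadjusted p under 0.05, limma gave 10 higher and 0 lower in the endothelial list and 4 higher and 0 lower in the adipocyte list.

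Of the 10 basal epithelial genes 5 rose, among them the contractile genes Myh11 (0.74), Mylk (0.74) and Cnn1 (0.72) and the oxytocin receptor gene Oxtr (0.94), and 1, Trp63, fell. None of those 4 increases passed with a robust prior or without trend. Acta2 (0.21) was the other basal list gene that rose, and which cells carried these increases was not tested. Of 9 luminal genes 1 rose (Pgr, 0.36) and 0 fell. Pgr did not pass with a robust prior, without trend or without control replicate 1 (0.23). At an unadjusted p under 0.05 limma gave 2 higher and 0 lower, Pgr and Esr1 (0.24, limma, adjusted p = 0.0747). Epithelial markers were bright on all arrays. Krt14, whose promoter drives Cre, differed by 0.43 and the P-cadherin gene Cdh3 by -0.23, neither past the threshold (limma, adjusted p = 0.0993 and adjusted p = 0.15). Krt5 differed by -0.02, Krt8 by 0.05, Krt18 by 0.08, Epcam by 0.03 and Cdh1 by -0.11, none past the threshold.

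Melanocytes share Sox10 and a neural crest origin with Schwann cells. Of their 7 markers only Mitf (0.46, not past the threshold) was bright enough to test, and the pigment genes Tyr, Tyrp1, Pmel and Mlana differed by between -0.18 and 0.02. Dct stood at 6.56 and 6.76 in control arrays but at 6.95 and 8.14 in knockout arrays, so 1 array carried the difference. Among immune markers, 2 of 3 tested lymphocyte genes fell (Cd79b with a difference of -1.91, Ccr7 with -0.84) and 0 rose. Cd79b lay under the filter level in both knockout arrays and was tested through its control signal. Of 3 tested macrophage genes 1 (Lyz2, difference -0.96) fell and 0 rose, and the median over the 6 macrophage genes on the array was 0.11. The Lyz2 call was lost without control replicate 2 (-0.89), with a robust prior, without trend and with the filter at the 60th percentile. By limma 0 genes of either immune list were higher at an unadjusted p under 0.05.

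**Figure D4:**
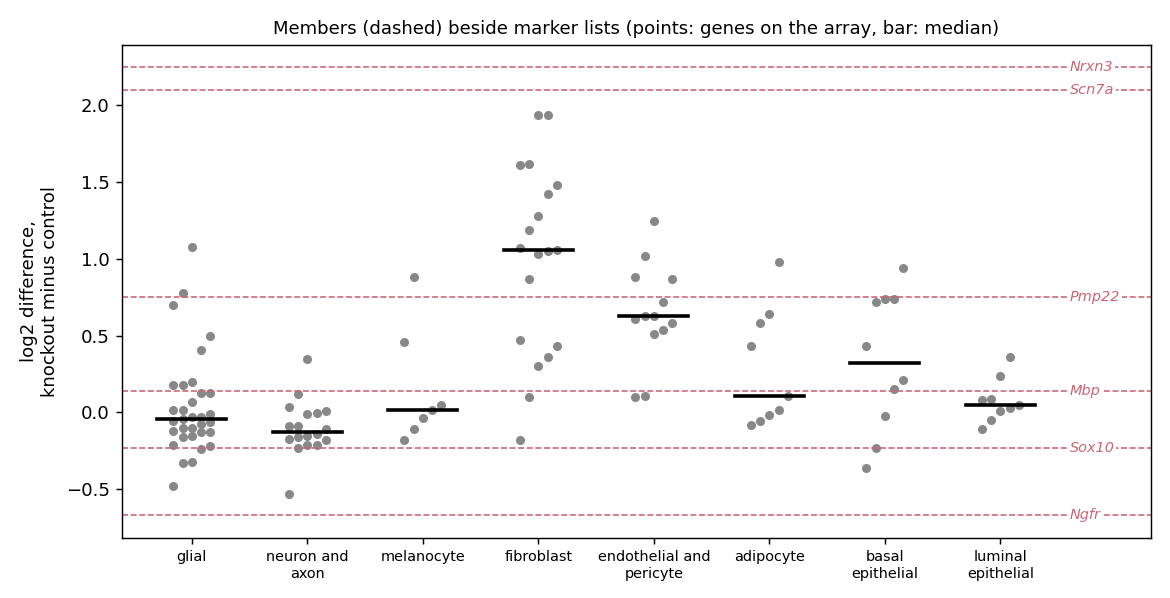
Log2 difference, knockout minus control, of each gene on the array in 8 marker lists (points, with the list median as a bar) and of the 6 measured members (dashed red lines), 2 arrays per group. Scn7a and Nrxn3 lie above every listed gene, the fibroblast list has the highest median (1.06 over its 19 genes on the array), and the glial median is near 0 (-0.04).

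Steps between replicate arrays of a group do not use the genotype contrast, and they allow no test with 1 array a side. From knockout replicate 1 to replicate 2 the values differed by 0.70 for Scn7a, 0.38 for Nrxn3 and 0.35 for Pmp22, beside a median of 0.31 over the fibroblast list, with replicate 2 the higher array for 18 of its 19 genes. Over the glial list the median was 0.09, with 22 of 33 higher, and over all tested genes it was -0.018. Mbp differed by 0.099, Ngfr by 0.20 and Sox10 by -0.17. The medians were also 0.37 for the basal epithelial list (10 of 10 higher in replicate 2), 0.33 for the endothelial and pericyte list (13 of 13) and 0.18 for the adipocyte list. Scn7a, Nrxn3, Pmp22, Ngfr and Mbp thus differed between the knockout pools in the direction that these lists share with the fibroblast list, and Sox10 did not. The mostly dim sodium channel list (median 0.20, 8 of 10 higher) and neuron and axon list (0.11, 14 of 18) shared that direction. It was therefore not particular to any of these lists.

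Between the control arrays the corresponding steps were 0.37 for Scn7a, 0.25 for Nrxn3 and 0.17 for Pmp22, 0.065 for Mbp, 0.01 for Sox10 and -0.29 for Ngfr. The list medians there were 0.028 for fibroblast, 0.28 for endothelial and pericyte and -0.037 for glial genes, beside 0.029 over all tested genes. The control pools therefore differed in Scn7a and Nrxn3 by about as much as in the vessel genes, and by more than in the median fibroblast gene.

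The profile over the 4 arrays, each gene centred on its own mean, gave the genes most like Scn7a and Nrxn3 by root mean square distance on the log2 scale. Nrxn3 was the nearest of all tested genes to Scn7a (distance 0.140), followed by Ccdc80 (0.150), Lum, Zeb1, Lama2, Slc38a11, Elapor1 and Fmod (0.288). For Nrxn3 the nearest was Ccdc80 (0.129), then Scn7a, Lum, Inmt, Zeb1, Lama2, Elapor1 and Slc38a11 (0.306). Inmt (6.98 and 7.27), Zeb1 (7.31 and 7.92) and Lama2 (7.25 and 7.85) lay under the filter level in both controls. They were ranked only through their knockout signal, so they could enter only as genes with a large rise. Ccdc80, Lum, Lama2 and Fmod encode secreted or matrix proteins, Zeb1 a transcriptional repressor and Inmt a methyltransferase. Slc38a11 is the putative amino acid transporter gene described above, and Elapor1, near both genes, was not assigned to a group here.

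No glial gene was among the 8 nearest profiles, and the ranks of the glial genes were widely spread. Cdh19, under the filter, was not ranked. In the order of likeness to Scn7a, Pmp22 stood at rank 150 (distance 0.694), Drp2 at 155, Ncam1 at 202, Erbb3 at 1615, Mbp at 1964, S100b at 6317, Sox10 at 10862 and Ngfr at 11885 among the tested genes. The distance is dominated by the size of the genotype difference, so this order is a description of the same contrast and not separate support.

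**Figure D5:**
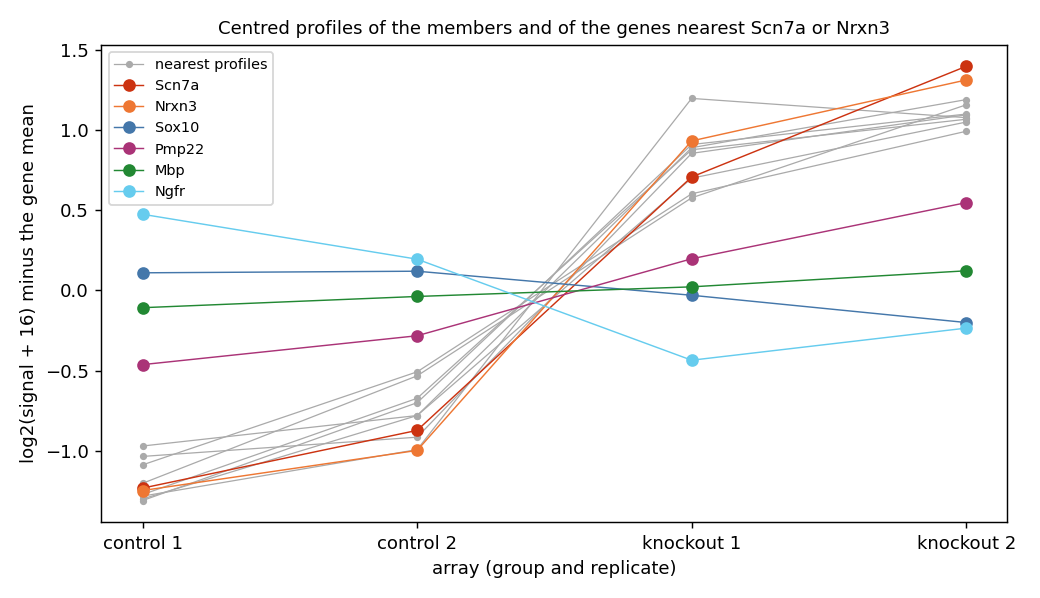
Log2(signal + 16) minus the gene mean on each array for the 6 measured members (coloured) and the genes nearest in profile to Scn7a or Nrxn3 (grey), where lines only join the points of a gene. Scn7a and Nrxn3 run inside or beside the grey group, Pmp22 has the same sign with a smaller size, Mbp is almost level, and Sox10 and Ngfr run the other way.

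The targeted gene Ovol2 had control values of 8.05 and 8.31 and knockout values of 7.85 and 7.73, a difference of -0.39 ± 0.16 (SE; limma, adjusted p = 0.17), in the direction of the labels and not past the threshold. Both knockout arrays lay under the filter level, so Ovol2 was tested through its control signal and the size of its loss is uncertain. It crossed the threshold only with the crossed pairing of replicates, which was chosen after seeing the data (limma, adjusted p = 0.0497). Where the Ovol2 probes lie relative to the deleted part is not known here.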

How the data were processed

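The deposited series table gives linear signal intensities of 35556 probe sets. Affymetrix Expression Console 1.1.1 and PLIER 2.0 made them, per the submitters' processing notes; their settings, the background correction, the normalization and the build were not given in the sources used here. Array medians ran from 252 to 272. The labels call the arrays biological replicates, each a pool of mice, and 2 arrays per group limit the precision. No detection calls were used, so a dim gene could not be told from background.

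Probe sets with 1 gene symbol (21789; 1621 had several and 12146 were not listed) were named through the platform annotation, with the brightest probe set per gene. Values were log2(signal + 16), quantile normalized in limma 3.58.1 (R 4.3.3). Genes under the 40th percentile of the mean (7.97, a signal of about 235) were not tested. Genotypes were compared with lmFit and eBayes with a trend, Benjamini-Hochberg over 11963 genes, threshold 0.05, checked on simulated data. The members and lists were chosen with earlier results of these data known. Named were the members, fixed glial markers, the gene families, up to 4 tested genes per list and the 8 nearest profiles. The genes named from a list were not always those with its largest differences. Alternatives covered normalization, offset, probe set, filter, prior, the replicate block and single arrays. Cadm2 was not analysed, so the planned comparison with 5 genes used 4, and a planned comparison of proteins was not made. List counts leave out the members, and list sums are of normalized linear signals.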

Additional observations from a re-analysis of the deposited data

How the results depend on the processing

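The log2 differences of the 6 members kept their sign under the alternatives run for them, and another normalization or offset moved each by less than the SD within groups. With 2 arrays per group, leaving out 1 array cannot move a difference by more than that SD and the block moves it by 0, so those settings say nothing on its stability. The gap between Scn7a and Nrxn3 and the other members, 2.22, ranged from 1.93 to 2.51 without single arrays. Counts over all genes (753 higher and 532 lower) moved more: 480 and 273 with median centring, 143 and 45 without trend, and between 320 and 1168 higher and between 156 and 1179 lower without single arrays. The glial count of 2 higher was 1 with the filter at the 60th percentile, where Drp2 was not tested, and between 1 and 3 without single arrays. The glial count of 1 lower was 0 without trend (limma), with 3 at an unadjusted p under 0.05. With the replicate number as a block the counts were 1170 and 1076, and the glial counts were 3 and 1. The labels do not say that a number marks a shared litter, and the steps between replicates correlated at -0.196 across genes between the groups; the crossed pairing, chosen after seeing the data, called 715 and 488. Signs turned, always without a call, for S100b (0.02 in the values as deposited, 0.036 without control replicate 1, 0.0082 without knockout replicate 1), Cadm4 (0.025 as deposited, 0.097 without control replicate 2, 0.013 without knockout replicate 2), Adgrl1 (-0.023 without control replicate 1, -0.0035 without knockout replicate 2), Nlgn3 (0.075 without knockout replicate 1) and Scn8a (-0.055 without knockout replicate 2). Without single arrays these ranged from -0.12 to 0.036 for S100b, -0.14 to 0.097 for Cadm4, -0.023 to 0.082 for Adgrl1, -0.17 to 0.075 for Nlgn3 and -0.055 to 0.15 for Scn8a. The causes were not tested.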
